A study of Mus musculus with 2 samples.

Results

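The S100 alarmins are small calcium-binding proteins that myeloid cells hold in the cytoplasm and release on activation or damage. The 9 genes described here are the alarmin pair S100a8 and S100a9, 4 further S100 genes (S100a6, S100a4, S100a10 and S100a11) and 3 receptor genes (Ager, Tlr4 and Tlr2). They were named from what is known of the pathway, with earlier results of these data known. They are 9 of the 27842 genes listed in either count table. All 9 had counts in both libraries. The level of each was followed over cell classes of mouse bone marrow in 1 control and 1 diabetic library, to give the cells in which alarmin transcripts and receptor transcripts lay.

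Both libraries were made with the Singleron GEXSCOPE single-cell RNA kit from marrow of the femurs and tibias of C57/BL6 mice. Mice of the control library were given sodium citrate solution and had normal blood sugar. Mice of the other library were given streptozotocin, a drug that kills pancreatic beta cells, and had high blood sugar. The labels call that state type 1 diabetes (T1D) and do not give the animals' age, sex or number, or the time since the injection. Bones were digested with collagenase and dispase and red blood cells were lysed in both groups. With 1 library per group no test between conditions exists, no p-value is given, and a difference describes these libraries only.

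S100A8 and S100A9 form a heterodimer, calprotectin, that makes up much of the cytosolic protein of neutrophils. Outside the cell the pair binds Toll-like receptor 4, and S100 proteins also bind the receptor for advanced glycation end products (RAGE, the product of Ager). In diabetic mice, neutrophil S100A8 and S100A9 are known to act through RAGE on common myeloid progenitors and macrophages and to raise the output of granulocytes and monocytes. Toll-like receptor 2, the product of Tlr2, senses bacterial lipoproteins and shares the MyD88 relay with Toll-like receptor 4.

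The control library held 12803 kept cells with a median of 3633 counts, and the T1D library 15579 with a median of 2757. Shares of cells with a count therefore carry a depth gap, and levels are given as CPM, a gene's counts per 1000000 counts summed over a class. Nuclear ribosomal RNA took 30.3% and 34.0% of all counts. The libraries shared 253 cell barcodes. Clusters were made without the 9 genes and named by marker genes, so each class name carries the sense of "like". Leading genes of the stem or multipotent progenitor cluster were Pf4, Cd34, Angpt1 and Itga2b, of which Pf4 and Itga2b are megakaryocyte markers. No cluster was named megakaryocytes, so this class may hold cells of that lineage. In the classes given here, 6 to 18 markers of each class in the control library and 6 to 16 in the T1D library stood at least 2-fold above all other cells. Clusters of 4 kinds (monocytes, mature B cells, pro- or pre-B cells, and T or NK cells) carried neutrophil markers at 40% or more of the neutrophil level and were held apart. This limit was set after the data had been seen, and it held apart 9.97% of control and 6.0% of T1D cells. A further 1.87% and 4.54% stayed unnamed.

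S100a8 and S100a9 lie next to each other on chromosome 3. The 250 bases before the start of each gene are shown because the transcripts of the pair varied together over classes. They are from RefSeq on GRCm38.p6, read 5′ to 3′ along the gene. Capitals mark matches on either strand to GAGGAA (the core of sites of PU.1, a myeloid transcription factor), TATAAA (the TATA box) and TTGCNNAA (a core of sites of C/EBP factors, which act in granulocyte development).
S100a8, chr3:90668821-90669070, plus strand: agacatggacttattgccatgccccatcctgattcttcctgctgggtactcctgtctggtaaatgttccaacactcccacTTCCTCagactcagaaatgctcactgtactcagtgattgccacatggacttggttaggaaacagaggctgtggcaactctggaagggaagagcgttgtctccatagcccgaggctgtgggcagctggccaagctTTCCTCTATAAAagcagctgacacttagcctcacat
S100a9, chr3:90695722-90695971, minus strand: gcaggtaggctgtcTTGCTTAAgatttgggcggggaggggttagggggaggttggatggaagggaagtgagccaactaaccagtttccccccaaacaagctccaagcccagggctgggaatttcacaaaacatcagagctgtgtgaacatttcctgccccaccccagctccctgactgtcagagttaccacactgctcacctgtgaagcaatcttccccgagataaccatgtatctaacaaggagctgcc
The S100a8 window held a TATA box 30 bases before the start and the PU.1 core, on the opposite strand, at 36 and 170 bases. The S100a9 window held the C/EBP core 236 bases before the start and neither other motif. Of all 32851 RefSeq promoters of this length, 12.4% held TATAAA, 23.3% GAGGAA and 9.56% TTGCNNAA. Of the 9 genes, 7 had an entry in the RefSeq promoter table. S100a4 and S100a8 were the members with TATAAA among those 7, S100a8 and S100a11 those with GAGGAA, and S100a9 the member with TTGCNNAA.

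The neutrophil lineage was the main source of S100a8 and S100a9 transcripts in both libraries. Its 5783 control cells held 78.5% of all S100a8 counts and its 9163 T1D cells 82.5%, although they were 45.2% and 58.8% of the kept cells. For S100a9 the shares were 77.7% and 81.4%. Together the pair made up 2.81% of all control counts and 2.37% of all T1D counts. S100a8 stood at 28762 CPM in the control neutrophil lineage and at 15710 CPM in the T1D lineage, 1.83-fold lower (95% interval 1.82 to 1.84, counting error only). S100a9 stood at 32588 and 23434 CPM, 1.39-fold lower (log2 ratio -0.48). Per cell, the pair was lower in T1D as well. The median mature neutrophil gave it 6.12% of its counts in the control (10th to 90th percentile 3.56% to 9.62%) and 3.47% in T1D (1.78% to 5.82%). In immature neutrophils the medians were 5.25% and 3.57%. The ranges of single cells overlapped.

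**Figure D1:**
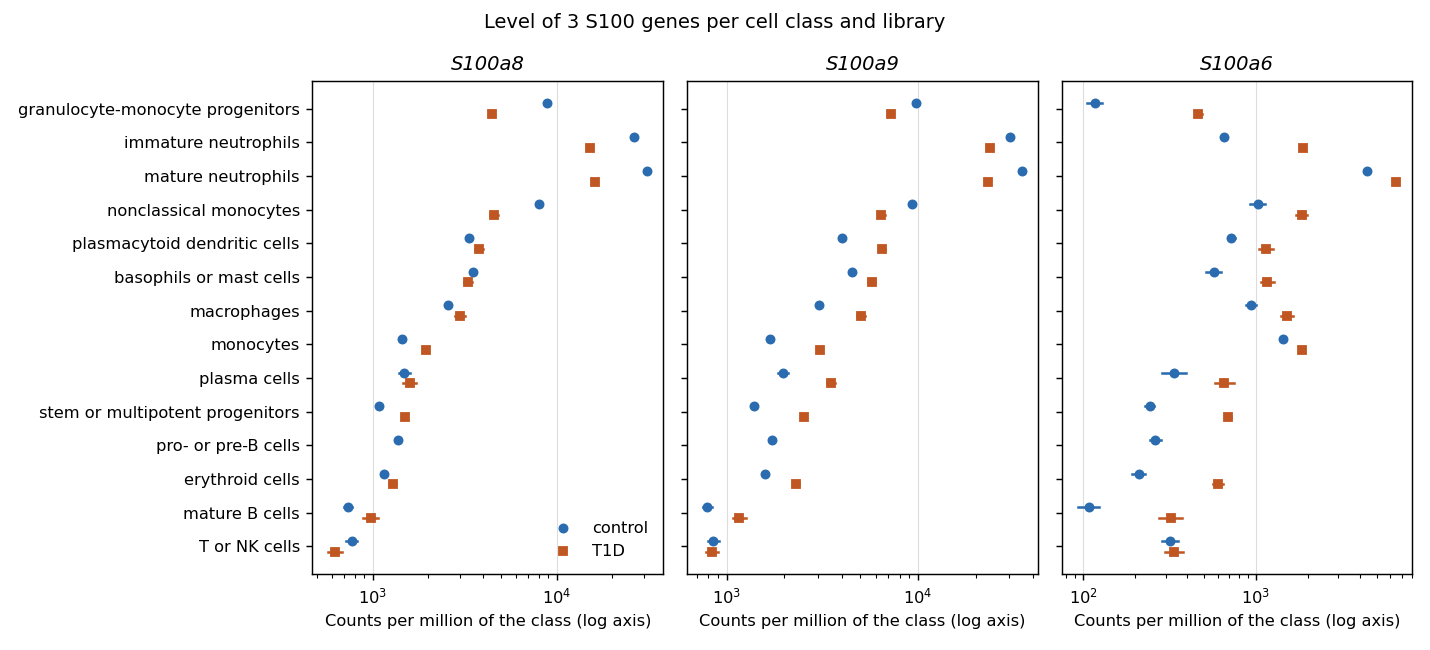
Level of S100a8, S100a9 and S100a6 in each cell class, in CPM of the class on a log axis, for the control (circles) and T1D (squares) library. Lines are exact 95% Poisson intervals, which cover counting error only. S100a8 and S100a9 were lower in T1D in granulocyte-monocyte progenitors and neutrophils, and S100a6 was higher there.

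Over all kept cells, among which the T1D library held more neutrophils, the difference was smaller. S100a8 stood at 13097 CPM in the control and 9435 CPM in the T1D library (log2 ratio -0.47). S100a9 stood at 14995 and 14271 CPM (log2 ratio -0.07), and its sign turned with the scaling of the libraries, to 0.06 with TMM factors, 0.03 with median-of-ratios size factors and 0.01 with ribosomal RNA left out. Relative to library totals, the same scalings shifted every log2 ratio by 0.13, 0.11 and 0.08. For S100a9, levels over the whole marrow therefore give no direction.

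Within single neutrophil clusters the size of the S100a8 difference varied. In the 4 immature clusters, each with 160 or more cells in both libraries, S100a8 was lower in T1D by log2 ratios of -0.69 to -0.91. In cluster 0, the largest of them, it stood at 30684 CPM in 1217 control cells and 18303 CPM in 1887 T1D cells. In cluster 4, whose leading genes include the mitosis genes Spc25 and Prr11, it stood at 23302 and 13218 CPM. Mature neutrophils of the libraries lay mostly in different clusters, the control cells in clusters 3 and 7 and the T1D cells in clusters 1 and 2. Across mature neutrophils S100a8 stood at 31027 and 16201 CPM (log2 ratio -0.94, and -1.03 with median-of-ratios factors). Inside cluster 3, with 2152 control and 162 T1D cells, it stood at 33327 and 24209 CPM (log2 ratio -0.46). Inside clusters 1 and 2, with 69 and 86 control cells, the log2 ratios were -0.17 and -0.06. Within the mature clusters the difference was thus smaller than across the class, while within the immature clusters it was close to that of their class (-0.79). The log2 ratios of S100a9 ran from -0.39 to -0.02 over the 7 clusters, and the interval lay below 1 in 6 of them. Counts from free RNA were also subtracted, at an upper level set by hemoglobin genes. The log2 ratio of S100a8 was then -0.35 in mature neutrophils and -0.52 in the lineage. This subtraction was unequal, and left 65.4% of control and 25.2% of T1D counts in mature neutrophils. In macrophages it left 34.8% and 16.9%. In basophils or mast cells it put the log2 ratio of S100a8 at 9.03.

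**Figure D2:**
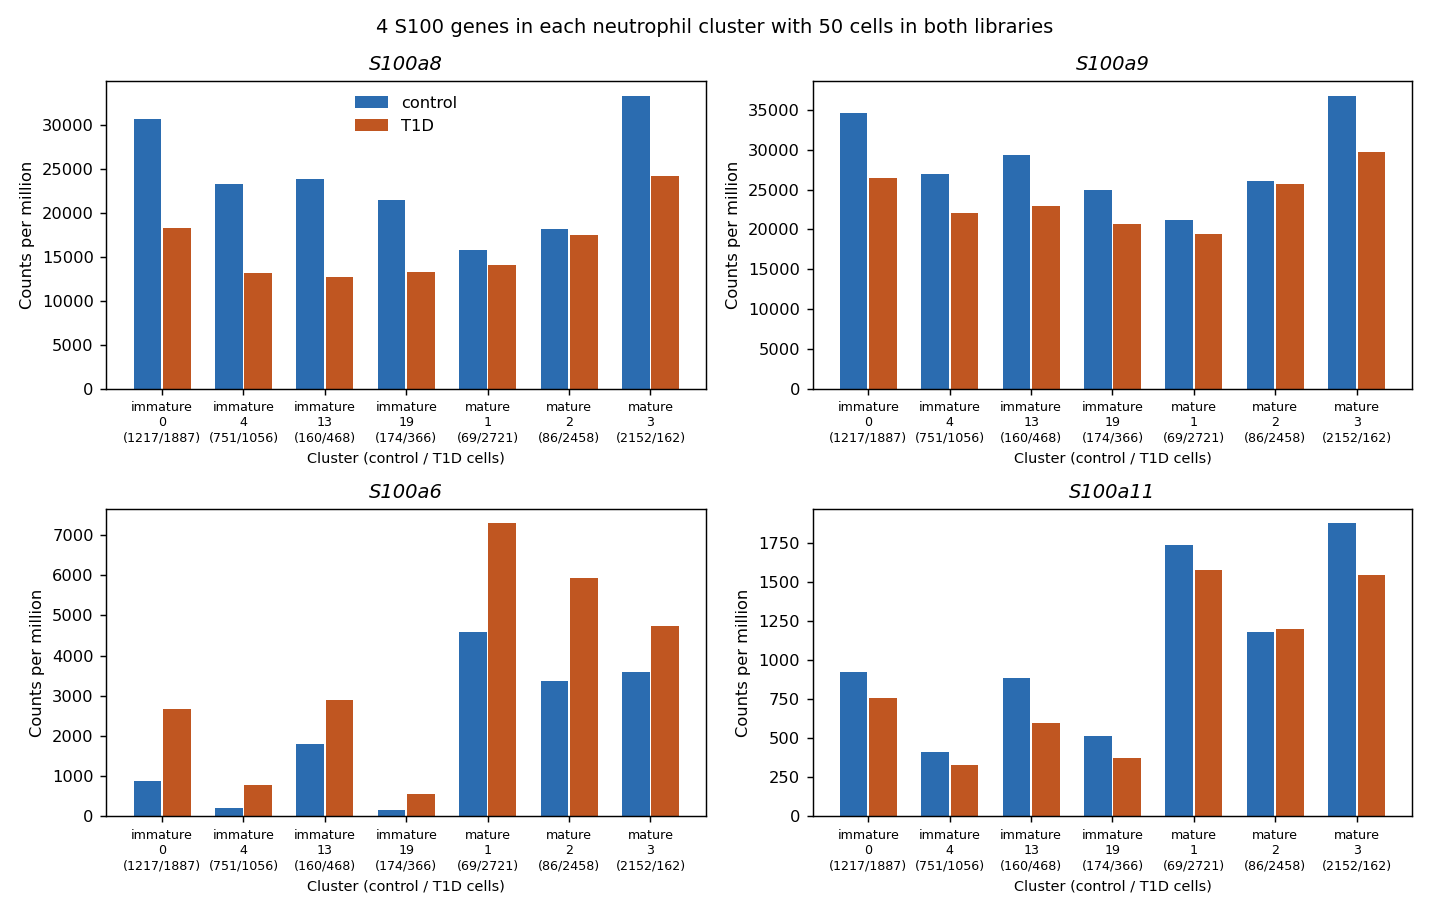
Level of S100a8, S100a9, S100a6 and S100a11 in CPM in each of the 7 neutrophil clusters with at least 50 cells in both libraries; bars are single libraries, with the cells of each under the axis. S100a8 was lower and S100a6 higher in T1D in 7 of 7 clusters.

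The proportion of the pair shifted, a measure that does not depend on the scaling of the libraries. There were 0.883 S100a8 counts per S100a9 count in the control neutrophil lineage (interval 0.880 to 0.886) and 0.670 in the T1D lineage (0.668 to 0.673). The ratio was lower in T1D in 11 of 11 compared classes, and the counting intervals did not overlap in 9 of them. In granulocyte-monocyte progenitors it was 0.916 in the control and 0.611 in the T1D library. Over classes it ran from 0.730 to 0.928 in the control library (14 classes) and from 0.452 to 0.835 in the T1D library (13 classes). These classes may not be independent, because part of their S100a8 and S100a9 counts may have come with RNA of neutrophils, as described next.

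Outside the neutrophil lineage, S100a8 and S100a9 followed the neutrophil markers. In T or NK cells, which do not make calprotectin, S100a8 stood at 769 CPM in the control and 626 CPM in the T1D library, 2.67% and 3.99% of the neutrophil level of the same library. The granule genes Ngp, Camp and Ltf stood at 1.82% to 2.48% of their neutrophil level in the control T or NK cells and at 3.91% to 4.47% in T1D. All 18 neutrophil markers summed to 2.90% and 4.88%, with 1 of the 18 at 0 in the control library and none in the T1D library. Plasmacytoid dendritic cells, basophils or mast cells and macrophages had more of both, with the marker sum at 8.46% to 14.6% in the control and 22.3% to 24.2% in T1D, and S100a8 at 8.90% to 12.2% and 19.1% to 24.2%. The neutrophil marker sum of these classes was thus larger in T1D. S100a9 was also higher in T1D in basophils or mast cells (log2 ratio 0.34) and in macrophages (0.72). Whether these counts came with neutrophil RNA or were the cells' own was not tested.

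Cells rich in neutrophil RNA were therefore left out of the other classes in 2 ways, both chosen after seeing the data. The first dropped cells with over 1% of their counts in the 18 neutrophil markers, which include Lcn2 and Chil3, genes that monocytes also express. The second, added after the results of the first were known, dropped cells with over 0.5% of their counts in the granule genes Ngp, Camp, Ltf and Retnlg. With the first step the log2 ratio of S100a9 was 0.03 in basophils or mast cells and 0.35 in macrophages, and with the second -0.01 and 0.33. In erythroid cells it was 0.53 with all cells, 0.79 with the first step (258 and 450 CPM) and 0.80 with the second (240 and 421 CPM). The 2 steps differed most in monocytes, where the first kept 1382 control and 647 T1D cells and the second 1450 and 1386 of 1587 and 1765.

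**Figure D3:**
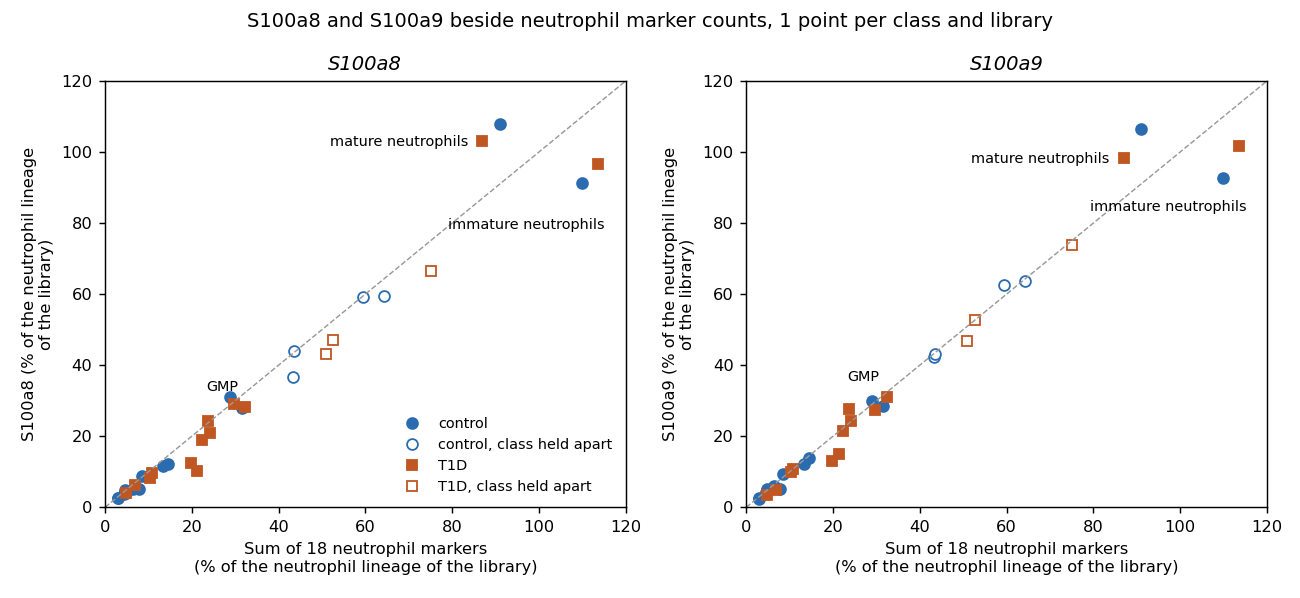
S100a8 (left) and S100a9 (right) in each class as a percentage of the neutrophil level of the same library, against the sum of 18 neutrophil markers expressed the same way; open symbols are the clusters held apart. GMP stands for granulocyte-monocyte progenitors. The dashed line marks equal percentages; T or NK cells lie at 2.90% and 4.88% of the marker sum, and T1D monocytes lie under the line at 19.8% of the marker sum and 12.4% of S100a8.

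Monocytes are known to make S100a8 and S100a9 in the blood. In the marrow their median cell lay near the level of T or NK cells. Their class level lay above it without the clusters held apart, and below it with those clusters put back. S100a8 stood at 1443 CPM in 1587 control monocytes and 1955 CPM in 1765 T1D monocytes, beside 769 and 626 CPM in T or NK cells. Monocyte cluster 5 had 2156 and 2714 CPM, cluster 9 had 435 and 514, and cluster 10 had 623 and 917. Cluster 5 also had the highest neutrophil marker sum of the 3. Of monocytes, 6.74% and 13.1% gave over 1% of their counts to the pair, beside 2.77% and 1.79% of T or NK cells. The median monocyte had 0.0439% and 0.0958% of its counts in the pair, beside 0.0654% and 0.0719% for the median T or NK cell. With marker-rich cells left out, S100a8 stood at 310 and 398 CPM in monocytes and at 480 and 440 CPM in T or NK cells. With granule-rich cells left out, it stood at 392 and 697 CPM in monocytes and at 437 and 418 CPM in T or NK cells. S100a9 in monocytes stood at 238 and 320 CPM with the first step, which is not past the 2-fold rule given further on, and at 286 and 620 CPM with the second, which is. In T or NK cells it stood at 438 and 555 CPM and at 380 and 499 CPM. The control level of monocytes was below that of T or NK cells under both steps, and whether T1D monocytes stood above T or NK cells depended on the step. Monocytes in the clusters held apart had 10579 and 6799 CPM of S100a8 with the neutrophil marker sum at 43.3% and 50.9% of the neutrophil level. T or NK cells held apart had 12620.5 and 7419.7 CPM. With these clusters put back, S100a8 stood at 2385 and 2797 CPM in monocytes and at 5484 and 4566 CPM in T or NK cells.

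The class named granulocyte-monocyte progenitors, by markers such as Mpo, Elane and Prtn3, held 3.73% of S100a8 counts in the control and 4.26% in T1D. These markers do not tell such progenitors from committed neutrophil precursors, which the class may hold. S100a8 stood at 8904 CPM in 416 control cells and 4437 CPM in 972 T1D cells, 2.01-fold lower (interval 1.97 to 2.04). S100a9 stood at 9723 and 7258 CPM, 1.34-fold lower (interval 1.32 to 1.36). Single progenitors differed widely, with 59.4% of control and 43.0% of T1D cells giving over 1% of their counts to the pair. Nonclassical monocytes had similar levels, 8009 and 4566 CPM of S100a8 and 9320 and 6427 CPM of S100a9, but held 0.426% and 0.343% of S100a8 counts. With granule-rich cells left out, their S100a8 stood at 456 and 529 CPM. The granule genes in granulocyte-monocyte progenitors did not keep the proportions of neutrophil RNA. Camp stood at 61.6% and 66.8% of its neutrophil level, Ltf at 10.5% and 11.8%, and S100a8 at 31.0% and 28.2%. The log2 ratio of S100a8 was -1.0, at the limit of the 2-fold rule given further on, and 5 alternatives took it under that limit. It was -0.99 with TMM factors, with median-of-ratios factors and with the depth floor, -0.95 with ribosomal RNA left out and -0.63 with a finer clustering (resolution 2). S100a9 stood at -0.06 with the finer clustering, beside -0.42.

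A difference was called by size where the CPM differed at least 2-fold (a log2 ratio of 1 with 5 CPM added), reached 50 CPM in the higher library and had a counting interval of the ratio that left out 1. Over all kept cells 3.49% of genes met this rule, and of the 9 genes S100a10 met it, as lower in T1D. In 11 classes with at least 100 cells in both libraries, 10 of the 99 pairs of a gene and a class met it, 6 as higher and 4 as lower. Of the pairs, 59 reached 50 CPM, and the 10 are 16.9% of those. By class the counts were 1 gene each in stem or multipotent progenitors (1.61% of all genes met the rule there), immature neutrophils (1.31%), macrophages (10.9%), basophils or mast cells (7.2%), erythroid cells (2.4%) and T or NK cells (4.69%). Granulocyte-monocyte progenitors (1.19%) and mature B cells (15.4%) had 2 each. Mature neutrophils (3.17%), monocytes (2.89%) and nonclassical monocytes (10.6%) had none, with log2 ratios of the 9 genes between -0.94 and 0.56, -0.92 and 0.85, and -1.19 and 1.81. S100a6 made up all 6 higher pairs.

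**Figure D4:**
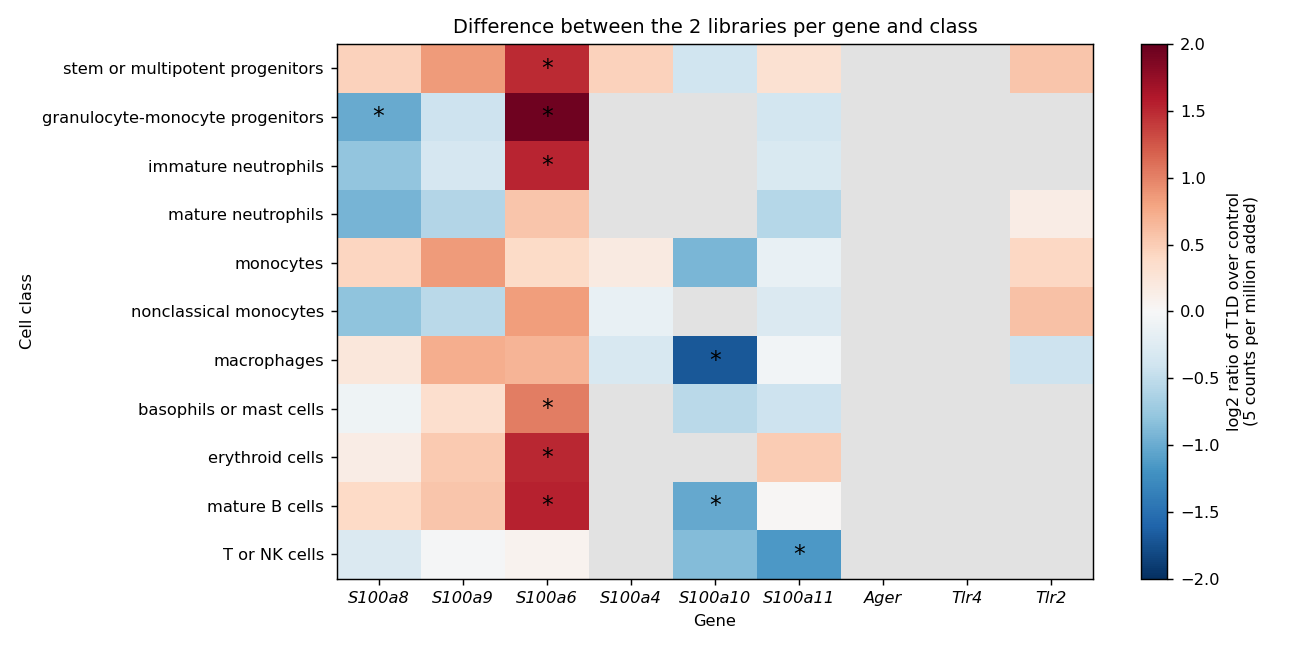
Log2 ratio of T1D over control (5 CPM added) for each of the 9 genes in the 11 compared classes; stars mark the 10 pairs past the 2-fold rule, and grey cells did not reach 50 CPM in either library. S100a6 is red in 11 of 11 classes, while Ager and Tlr4 are grey throughout.

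S100a6, which codes for calcyclin and is known for a link to proliferation and the cytoskeleton, was higher in T1D. Over all kept cells it stood at 1522 CPM in the control and 2820 CPM in the T1D library, 1.85-fold higher (interval 1.84 to 1.87). Granulocyte-monocyte progenitors had 117 and 465 CPM, 3.98-fold higher (interval 3.56 to 4.46). In stem or multipotent progenitors it stood at 242 and 688 CPM, 2.84-fold higher (interval 2.64 to 3.06). Its ratio was above 1 in 11 of 11 classes, and the interval left out 1 in 10 of them. T or NK cells were the exception, at 319 and 335 CPM.

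S100a6 marked the mature end of the neutrophil lineage. It stood at 653 CPM in immature and 4391 CPM in mature control neutrophils, and at 1885 and 6474 CPM in T1D. Of the 8 neutrophil clusters, the 7 with at least 50 cells in both libraries had more S100a6 in T1D, with log2 ratios from 0.40 to 1.80. Cluster 7, with 1174 control and 45 T1D cells, had less, at 6080 and 5104 CPM. The ratio was largest in the early clusters. In cluster 19, led by the S phase genes Ccne2 and Cdc6, it stood at 154 and 550 CPM, and in cluster 4 at 221 and 771 CPM. In cluster 3 it stood at 3598 and 4740 CPM. Immature neutrophils had Retnlg, a mature neutrophil marker, at 12.5% and 21.6% of its level in the neutrophil lineage. Whether S100a6 in the early clusters came with RNA of mature neutrophils was not tested. The border between immature and mature cells moved between random starts of the clustering, and with it the log2 ratio of S100a6, from 0.36 to 1.52 in immature and from 0.14 to 0.56 in mature neutrophils over 10 starts. At resolution 2 it was 0.57 in immature neutrophils, which then did not meet the 2-fold rule. After the free-RNA subtraction it was 1.44 in mature neutrophils, which then met the rule.

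In stem or multipotent progenitors, erythroid cells, mature B cells, macrophages and basophils or mast cells the neutrophil marker sum, as a percentage of the neutrophil level, was also higher in T1D. In nonclassical monocytes it was not, at 31.6% and 29.8%, with S100a6 at 1024 and 1837 CPM. There S100a6 stood at 713 and 749 CPM with granule-rich cells left out (ratio interval 0.835 to 1.32). It stood at 739 and 765 CPM with marker-rich cells left out (0.817 to 1.31), so the difference was within counting error under both steps. With granule-rich cells left out, the log2 ratio was 1.02 in stem or multipotent progenitors (133 and 274 CPM), 1.43 in erythroid cells (69.0 and 195 CPM) and 1.45 in mature B cells (77.0 and 220 CPM). With marker-rich cells left out it was 1.04, 1.62 and 1.60. Basophils or mast cells no longer met the rule, at 0.59 and 0.62. In macrophages the direction turned, to -0.20 and -0.16 from 0.68. In monocytes the log2 ratio of 0.38 was 0.27 with granule-rich and 0.07 with marker-rich cells left out. The upper free-RNA subtraction took the call away in stem or multipotent progenitors (-2.85, the direction turned) and in mature B cells, where S100a6 was left with no difference. In granulocyte-monocyte progenitors, to which the 2 steps were not applied, the log2 ratio was 1.04 after the free-RNA subtraction. Their neutrophil marker sum was also higher in T1D, at 28.9% and 32.4% of the neutrophil level. Retnlg, a marker of mature neutrophils, stood there at 3.87% and 8.37%. Whether S100a6 in these progenitors came with neutrophil RNA was not tested.

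S100a11, which codes for calgizzarin, was also highest in mature neutrophils and was lower there in T1D, at 2044 and 1379 CPM (1.48-fold, interval 1.45 to 1.51). In immature neutrophils it stood at 685 and 553 CPM. The interval lay below 1 in 5 of the 7 neutrophil clusters. Cluster 2, with 86 control cells, had 1183 CPM in the control and 1198 CPM in T1D. In T or NK cells S100a11 stood at 156 and 67.9 CPM, 2.30-fold lower (interval 1.70 to 3.14) on 167 and 59 counts, and this pair met the 2-fold rule. It did not with the depth floor (-0.92), with the T or NK clusters held apart put back (-0.26) or after the free-RNA subtraction. Monocytes stood at 355 and 321 CPM and macrophages at 245 and 234 CPM. With marker-rich cells left out these were 316 and 233 CPM and 168 and 103 CPM, and with granule-rich cells left out 333 and 306 CPM and 162 and 126 CPM. After the free-RNA subtraction monocytes were past the rule (-1.34).

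S100a4, which codes for metastasin and marks motile and mesenchymal-like cells, was a monocyte gene here. Monocytes held 69.9% of its counts in both libraries, at 403 CPM in the control and 457 CPM in the T1D library. Macrophages followed with 240 and 192 CPM and nonclassical monocytes with 220 and 199 CPM, and lay below monocytes in both libraries without differing from each other beyond counting error. The log2 ratio of 0.18 in monocytes was 0.27 with granule-rich cells left out and 0.02 with marker-rich cells left out. Mature neutrophils stood at 1.86 and 4.59 CPM. S100a4 and S100a6 both lie on chromosome 3, and mature neutrophils had the highest level of S100a6. No class met the 2-fold rule for S100a4.

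S100a10, known as p11 and the partner of annexin A2 at the plasma membrane, was lower in T1D in most classes. Over all kept cells it stood at 66.2 CPM in the control and 28.2 CPM in the T1D library, 2.35-fold lower (interval 2.21 to 2.50). Monocytes held 56.8% and 63.8% of its counts. They stood at 225 and 117 CPM, 1.93-fold lower (interval 1.78 to 2.08). T or NK cells came second, at 142 and 76.0 CPM, 1.87-fold lower (interval 1.39 to 2.53). The ratio was below 1 in 10 of 11 classes, and the interval left out 1 in 5 of them. Cluster 5, the monocyte cluster with many cells in both libraries (695 and 835), had 257 and 135 CPM. In macrophages, past the rule, the T1D value rests on 7 counts (71.4 and 18.6 CPM, 3.83-fold lower, interval 1.77 to 9.88), and the call was lost in thinned cells and after the free-RNA subtraction. Mature B cells met the rule at 74.0 and 33.7 CPM. Most control B cells lay in a cluster with no T1D cell, and within the shared cluster 22 the values were 97.0 and 33.7 CPM. Granulocyte-monocyte progenitors and neutrophils stood between 1.04 and 3.20 CPM in both libraries. With the upper free-RNA subtraction, the log2 ratio in monocytes was -0.53. In mature B cells the call was lost with that subtraction (-0.43), with the depth floor (-0.93) and with ribosomal RNA left out (-0.95). In monocytes the log2 ratio of -0.92 was -0.92 with granule-rich and -0.72 with marker-rich cells left out.

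Among the receptors, Ager was close to the limit of detection. It had 99 counts in the control and 161 in the T1D library over all kept cells, 1.73 and 3.12 CPM. The T1D over control ratio was above 1 in 8 of 11 compared classes and below 1 in 1. The interval left out 1 in 3 classes, all with the higher level in T1D. Ager reached 50 CPM in 0 of the classes, so none could meet the 2-fold rule. The highest class was granulocyte-monocyte progenitors in T1D, at 5.55 CPM (interval 3.63 to 8.14), beside 2.55 CPM (1.10 to 5.02) in the control, and 26 and 8 counts. Of these progenitors, 2.37% of T1D and 1.92% of control cells had a count. T or NK cells had 1 count in each library. In nonclassical monocytes and basophils or mast cells no count was seen in either library. In the control, a level of Ager in these progenitors above that of T or NK cells was not detectable at this depth. The interval overlapped that of T or NK cells (up to 5.20 CPM). In T1D the intervals overlapped too (up to 6.42 CPM for T or NK cells). Macrophages (5.32 CPM on 2 counts) and immature neutrophils (4.15 CPM) lay within the progenitors' T1D interval. Monocytes (3.14 CPM) and mature neutrophils (2.90 CPM) lay below it.

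Tlr4, the receptor that signals to calprotectin and lipopolysaccharide, lay in phagocytes and in the class named granulocyte-monocyte progenitors. In the control library macrophages (38.7 CPM), granulocyte-monocyte progenitors (30.5 CPM) and mature neutrophils (30.1 CPM) led, and neighbours among them did not differ beyond counting error. Monocytes (20.4 CPM), immature neutrophils (14.8 CPM) and stem or multipotent progenitors (10.8 CPM) followed. In the T1D library monocytes (33.5 CPM), nonclassical monocytes (11 counts), macrophages (29.3 CPM), mature neutrophils (28.4 CPM) and granulocyte-monocyte progenitors (25.4 CPM) could not be ordered. T or NK cells stood at 3.74 and 3.45 CPM.

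Between the libraries, Tlr4 in granulocyte-monocyte progenitors differed by less than counting error, with a T1D over control ratio of 0.832 (interval 0.631 to 1.10). The same held for mature neutrophils (0.945, interval 0.812 to 1.10) and immature neutrophils (1.14, interval 0.915 to 1.41). Monocytes had more Tlr4 in T1D, with a ratio of 1.64 (interval 1.36 to 1.98). Cluster 5 had 16.5 and 24.0 CPM, and cluster 9, with 854 and 87 cells, 25.7 and 49.5 CPM. The log2 ratio of 0.60 in monocytes was 0.68 with granule-rich and 0.35 with marker-rich cells left out. The share of progenitors with a Tlr4 count was 17.1% in the control and 9.77% in T1D, a gap that goes with their median totals of 6892 and 4322 counts. Thinned to 1000 counts per cell, the shares were 1.92% and 2.78%, with overlapping intervals.

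Tlr2 had more counts and a different order. Monocytes (191 CPM in the control, 255 in T1D), mature neutrophils (161 and 178 CPM), macrophages (179 and 133 CPM) and nonclassical monocytes (155 and 235 CPM) held it, and T or NK cells stood at 10.3 and 16.1 CPM. Stem or multipotent progenitors stood at 45.0 and 68.2 CPM, above granulocyte-monocyte progenitors at 17.2 and 26.7 CPM. So Tlr4 was higher in granulocyte-monocyte progenitors than in stem or multipotent progenitors, while Tlr2 was higher in the latter, in both libraries. Over all kept cells Tlr2 stood at 93.4 and 125 CPM, 1.33-fold higher in T1D (interval 1.29 to 1.38). The ratio was above 1 in 10 of 11 classes, and the interval left out 1 in 7 of them. No class met the 2-fold rule for Tlr2. In monocytes the ratio was 1.34 (interval 1.26 to 1.43), with 121 and 162 CPM in cluster 5 and 291 and 365 CPM in cluster 9. That difference depended on which cells were left out. The log2 ratio of 0.41 was 0.51 with granule-rich cells left out (200 and 287 CPM). It was 0.08 with marker-rich cells left out (199 and 210 CPM), a step that kept 1382 control and 647 T1D monocytes. In mature neutrophils the log2 ratio of 0.14 turned to -0.23 at resolution 2 and to -0.02 in thinned cells, so no direction is given. Tlr2 also varied among mature neutrophils. The control cells of cluster 7, led by Cxcl2 and Clec4d, had 261 CPM of Tlr2, and those of cluster 3 had 110 CPM.

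**Figure D5:**
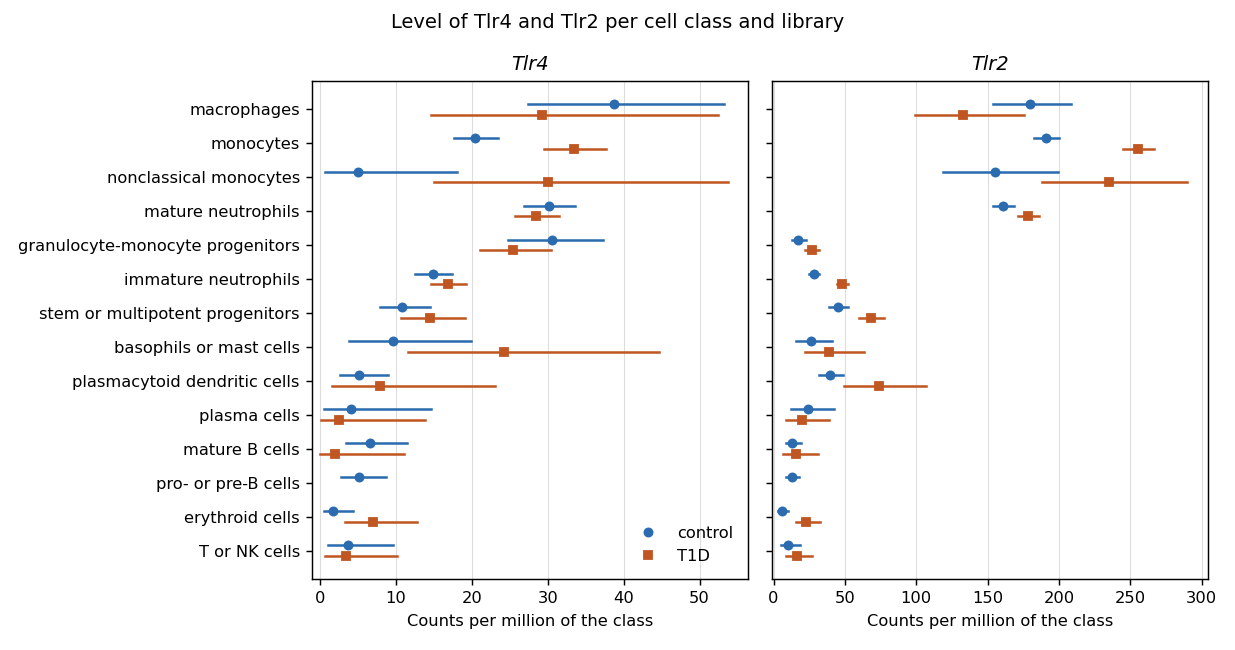
Level of Tlr4 and Tlr2 in each cell class, in CPM of the class on a linear axis, for the control (circles) and T1D (squares) library, with exact 95% Poisson intervals (counting error only). Granulocyte-monocyte progenitors lie among the highest classes for Tlr4, at 30.5 and 25.4, and among the low ones for Tlr2, at 17.2 and 26.7.

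Counted per cell, 24.5% of control and 18.3% of T1D granulocyte-monocyte progenitors had a count of Tlr4 or Tlr2, beside 61.1% and 59.2% of monocytes, 36.8% and 32.2% of mature neutrophils and 3.60% and 3.32% of T or NK cells. The proteins that present ligands to Toll-like receptor 4 were unequally seen. Cd14 was counted in 27.4% and 20.3% of granulocyte-monocyte progenitors, at 52.5 and 65.4 CPM. Ly96, which codes for the MD-2 subunit of the receptor, was counted in 0 of 416 and 0 of 972 of them, which allows shares of cells with a count of up to 0.721% and 0.309% (3 counts). This limits detection at this depth, not expression. In monocytes Ly96 was counted in 2.46% and 1.02% of cells. Cells with Tlr4, Cd14 and Ly96 together were 0 of 1587 control and 2 of 1765 T1D monocytes.

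The wider pathway was described by lists of genes, counted against the same 2-fold rule and given here mainly for progenitors, neutrophils and monocytes. Of the 19 adaptor and NF-kB relay genes, 1 was past the rule as higher in each of immature neutrophils, mature neutrophils and monocytes, and none in granulocyte-monocyte progenitors. It was Nfkbia, the inhibitor that NF-kB induces, at 227 and 491 CPM in mature neutrophils and 214 and 590 CPM in monocytes. In the progenitors it stood at 157 and 275 CPM (log2 ratio 0.79). The median log2 ratio of the list's 8 genes with 50 CPM in mature neutrophils was 0.50 (5 above 0), beside -0.02 for all genes with 50 CPM. In the progenitors the median of 8 such genes was 0.17 (8 above 0), beside -0.04.

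Of the 5 other RAGE and Toll-like receptor 4 ligands, 1 was past the rule in monocytes. Saa3, an acute-phase serum amyloid, stood at 8.47 CPM in control and 164 CPM in T1D monocytes. Saa3 led the monocyte cluster 10, which held 38 control and 843 of the 1765 T1D monocytes. Hmgb1, the nuclear alarmin, was past the rule as lower in mature B cells (392 and 176 CPM), where 509 of 711 control cells lay in a cluster with no T1D cell, and stood at 847 and 649 CPM in granulocyte-monocyte progenitors. Of the 7 other reported S100 receptors and RAGE partners, Cd33 was past the rule in monocytes, at 34.2 and 73.8 CPM. The 9 S100 binding partners, the 8 other Toll-like receptors and the 6 Toll-like receptor accessory proteins had none past the rule in progenitors, neutrophils or monocytes. Only genes with 50 CPM could pass. Of the binding partners 6 to 8 reached it in these classes, and of the accessory proteins 1 or 2. Of the other Toll-like receptors, 1 reached it in mature neutrophils and in monocytes, and 0 in progenitors and immature neutrophils. The partner of S100a10, Anxa2, stood at 757 and 696 CPM in monocytes, where S100a10 was 1.93-fold lower.

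The 14 myelopoietic cytokines and receptors had 2 past the rule in monocytes, Il1b (167 and 503 CPM) and Il6 (12.7 and 61.5 CPM). In progenitors and neutrophils none was past it, and 4 of the 14 reached 50 CPM in each class. Of the 5 myeloid transcription factors, Cebpb, a C/EBP factor of emergency granulopoiesis, was past the rule in stem or multipotent progenitors, granulocyte-monocyte progenitors, both neutrophil classes and monocytes. The list also had 1 gene past the rule as higher in each of nonclassical monocytes, macrophages, basophils or mast cells, and erythroid cells. Cebpb stood at 71.8 and 226 CPM over all kept cells. In immature neutrophils it stood at 43.8 and 140 CPM, in the cells where S100a8 stood at 26254 and 15197 CPM. Cebpa, Cebpd, Spi1 and Stat3 were not past the rule in progenitors, neutrophils or monocytes. Of the 10 other S100 genes none was past the rule in these classes, while 1 was past it as lower in nonclassical monocytes and 1 as higher in macrophages. Of the 10, 2 reached 50 CPM in granulocyte-monocyte progenitors. In stem or multipotent progenitors, both neutrophil classes and monocytes 1 did, so the rest could not pass. S100a13 was the one above 50 CPM over all kept cells, at 84.5 and 82.8 CPM.

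Genes with the most similar pattern were sought over 27 profiles (14 classes in the libraries that held them) among 5076 genes, by the Pearson correlation of log2(CPM + 5). The profiles share libraries and may share neutrophil RNA, so these values are descriptions. S100a8 and S100a9 correlated at 0.985 with each other. The genes closest to S100a8 were Lcn2 (0.977), Wfdc21 (0.976) and Adpgk (0.973), and those closest to S100a9 were Wfdc21 (0.985), Ngp (0.981) and Lcn2 (0.975). S100a6 was closest to Zfhx3 (0.916), Trem1 (0.910) and Mmp8 (0.907). Among the genes closest to S100a11 were Ets2 (0.926) and the G-CSF receptor gene Csf3r (0.924). S100a4 was closest to the chemokine receptor gene Ccr2 (0.960), then Ifi207 (0.918) and Ptpro (0.917). S100a10 was closest to Tmsb10 (0.913), AI504432 (0.877) and Ifi209 (0.864). Tlr2 was closest to Tgfbi (0.961), Gpr141 (0.924) and Lgals3 (0.923). Ager and Tlr4 did not reach the 50 CPM that this comparison needed.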

How the data were processed

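Counts per gene and cell barcode were deposited by the authors as whole numbers, not normalized. Demultiplexing used bcl2fastq 2.19, assignment to genes featureCounts, with genome build mm9. Those 3 facts come from the submitters' processing notes. Aligner, gene annotation and how molecular identifiers were collapsed: not given in the sources used here. Symbols are those of the tables, and genes listed for a single library count as 0 in its partner. Promoter sequences are RefSeq on GRCm38.p6, a build other than that of the counts.

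Barcodes with fewer than 200 genes or more than 20% mitochondrial counts were dropped (77 of 12880 control, 192 of 15771 T1D). No doublet caller was run, and clusters with markers of a pair of lineages were left unnamed or held apart. Both libraries were clustered together without integration (2000 variable genes, without S100, Tlr and list genes, 30 components, 20 neighbours, Leiden at resolution 1 with python-igraph 0.11.9, best modularity of 10 starts). A class name needed 3 markers at 2-fold and 50 CPM. CPM intervals are exact Poisson, ratio intervals exact conditional binomial and shares Clopper-Pearson, all at 95%, and they cover counting error only. An upper limit for a count of 0 uses 3 counts. The rule of size was tested on simulated counts for all kept cells (1256 genes) and granulocyte-monocyte progenitors (1535 genes): it called 100% of genes changed 4-fold and 0% of those changed 1.5-fold. Scaling alternatives used edgeR 4.0.16 (TMM) and DESeq2 1.42.0 (size factors) on class sums, with no test. Leaving out cells rich in neutrophil RNA was added after seeing the data, first by 18 neutrophil markers and then, once those results were known, by 4 granule genes. Putting back the clusters held apart was also added then. Named genes are the 9 members, list genes past the rule or the highest of a list, and the 3 genes most alike in pattern, of which 1 is not reported here. The members and lists were chosen with earlier results of these data known.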

Additional observations from a re-analysis of the deposited data

How the results depend on the processing

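The log2 ratios over all kept cells kept their direction for S100a8, Tlr4 and Tlr2 under 9 alternatives each, and that of S100a9 (-0.07) did not. With TMM factors S100a8 was -0.34, S100a9 0.0636 and Tlr2 0.53. With median-of-ratios size factors they were -0.37, 0.0338 and 0.50, and with ribosomal RNA out of the totals -0.40, 0.0058 and 0.48. With S100a8 and S100a9 out of the totals S100a8 was -0.48 and S100a9 -0.0779. With cells thinned to 1000 counts S100a8 was -0.58, S100a9 -0.19 and Tlr2 0.31. With both libraries held to the higher depth floor of 1904 counts S100a9 was -0.0785, and with at least 500 genes per cell S100a8 was -0.46 and S100a9 -0.0601. The number of gene and class pairs past the rule was 10, 21 with a 1.5-fold rule, and 7 to 12 under the other alternatives, the lowest with the depth floor. Of these, 3 were chosen after seeing the data: leaving out marker-rich cells (9), leaving out granule-rich cells, added once the former's results were known (10), and putting back the clusters held apart (11). Tlr2 in mature neutrophils (0.14) was -0.0241 in thinned cells and -0.23 at resolution 2. The cause was not tested. No paired analysis was possible because each group is 1 library. Depth limits Ager most, with 99 and 161 counts.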
